A study of Homo sapiens with 10 samples.

Results

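The miR-200 precursor genes MIR200A, MIR200B and MIR429 form a microRNA cluster on chromosome 1, and their rows were followed in 10 clones of PC-3, a widely used human line started from a bone metastasis of prostate cancer. The rows were found by gene symbol through a table that pairs probe sets with genes. All 3 genes had 1 row each, out of 14884 genes with a named row and 1072 microRNA genes. The clones carried a lentiviral vector, either with the CENPU gene, which encodes a centromere protein (5 clones, numbers 1, 4, 5, 7 and 13), or empty (5 control clones, numbers 1 to 5). All had been selected with blasticidin and grown out as isolates, and total RNA of each was hybridised to 1 Affymetrix array. The sources used here do not name the promoter that drives CENPU in the vector. Values are deposited log2 expression values, and differences are CENPU minus control clones on that scale. The number of clones limited the precision of every comparison.

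MicroRNAs of the miR-200 family are small RNAs that pair with messenger RNAs through their seed, the stretch from base 2 to base 8, and lower the output of those messages. Their best known targets are ZEB1 and ZEB2, transcription factors that switch off epithelial genes. ZEB1 and ZEB2 in turn bind E-boxes in the promoters of both miR-200 clusters and repress them, so that each side of this loop holds down the other. Epithelial cells are known for high miR-200, and its loss accompanies the transition to a mesenchymal state.

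The mature sequences, from RefSeq (GRCh38.p14), are shown with the seed in capitals, because the seed divides the family into a pair of target classes. The 3 members lie on the plus strand of chromosome 1, with miR-200b-3p at chr1:1167160-1167181, miR-200a-3p at chr1:1167916-1167937 and miR-429 at chr1:1169055-1169076. The sister genes MIR200C and MIR141 lie on the plus strand of chromosome 12, with miR-200c-3p at chr12:6963742-6963764 and miR-141-3p at chr12:6964155-6964176.
hsa-miR-200b-3p: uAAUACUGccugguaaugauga
hsa-miR-429: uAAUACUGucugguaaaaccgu
hsa-miR-200c-3p: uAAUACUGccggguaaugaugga
hsa-miR-200a-3p: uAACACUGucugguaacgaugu
hsa-miR-141-3p: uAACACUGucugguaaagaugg
MiR-200b-3p, miR-429 and miR-200c-3p shared 1 seed, and miR-200a-3p and miR-141-3p shared the other. The seeds of miR-200a-3p and miR-200b-3p differed by C4U, counted from 1 at the 5′ end with the base of miR-200a-3p given first. Of the 2370 mature human microRNAs in the RefSeq table, these 3 and these 2 were the only ones with each seed. Within the chromosome 1 cluster, miR-200a-3p was identical to miR-200b-3p at 18 of 22 bases and to miR-429 at 17 of 22, and miR-200b-3p to miR-429 at 16 of 22.

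The rows are named for the precursor genes, so the hairpins of 2 of them are shown with the mature 3′ part in capitals.
MIR200B, chr1:1167104-1167198, plus strand: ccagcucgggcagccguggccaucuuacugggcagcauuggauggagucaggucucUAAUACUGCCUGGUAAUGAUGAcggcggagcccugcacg
MIR429, chr1:1169005-1169087, plus strand: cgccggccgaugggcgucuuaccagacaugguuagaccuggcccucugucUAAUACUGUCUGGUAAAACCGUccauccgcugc
RefSeq places all 3 genes within the span of the long non-coding host gene MIR200BHG, which had no named row here. Whether the probes saw the primary transcript, the hairpin or other RNA cannot be read from the sources used here, and no value below is a level of a mature microRNA.

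The promoter of MIR200BHG is shown because ZEB1 and ZEB2 are described as binding E-boxes there. It spans chr1:1162627-1162926 on the plus strand (GRCh38.p14, RefSeq), from 250 bases before the annotated start to 50 after it, with E-boxes in capitals.
MIR200BHG promoter: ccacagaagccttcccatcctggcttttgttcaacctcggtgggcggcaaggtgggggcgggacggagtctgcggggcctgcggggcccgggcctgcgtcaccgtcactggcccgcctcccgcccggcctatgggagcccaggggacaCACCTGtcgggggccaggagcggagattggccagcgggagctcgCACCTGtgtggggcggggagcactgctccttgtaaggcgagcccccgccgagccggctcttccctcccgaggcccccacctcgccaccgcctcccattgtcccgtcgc
The search was for CACCTG and, for the other strand, CAGGTG. It found 2 matches that did not overlap, 102 and 58 bases before the start. At least 2 matches were present in 3.49% of 35116 promoters of the same length, and at least 1 in 20.6%. The promoter of MIR200CHG, the host of the chromosome 12 cluster, held 1 match, 78 bases before its start. A match describes letters in this window and is not evidence of binding in these cells.

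The CENPU row, which checks the labels, averaged 9.34 ± 0.43 in CENPU clones, against 6.26 ± 0.29 in control clones (SD, n = 5 each). Array medians lay between 4.62 and 4.76. Across 11916 protein-coding genes the deviation of a clone from the mean of all clones followed gene span, and this trend moved in part with the groups. The trend was positive in CENPU clones 5, 7 and 13 alone, and CENPU 1 lay within the range of the controls. Spearman's rho was -0.160, -0.0358, 0.197, 0.316 and 0.360 in CENPU clones 1, 4, 5, 7 and 13, against -0.0934, -0.355, -0.163, -0.279 and -0.165 in control clones 1 to 5. CENPU 13, CENPU 7 and control 2 lay at the ends, and values without these 3 clones are given where they bear on a result. Of the clones left, the other 4 controls, CENPU 1 and CENPU 4 had negative values and CENPU 5 a positive one. Leaving the 3 clones out therefore does not remove the trend from single clones. How much of it then differs between the groups, and its part in the results, was not tested. Of the prostate luminal markers 5 of 10 were measured, and HOXB13, a homeobox factor of the prostate, rose by 0.42 but passed in only 3 of the 10 fits without 1 clone. Calls over all genes were 613 to 1422 in the fits where HOXB13 did not pass, against 1504 with all clones. KLK2, KLK3, KLK4 and FOLH1 did not pass, so 20% of the 5 were called, where 10.1% of all genes were. None of 5 measured neuroendocrine, 2 stromal or 3 leukocyte markers passed in limma, and 0 had an unadjusted p under 0.05. Over all 14884 genes, 10.1% passed and 4147 had an unadjusted p under 0.05. Summed over the measured members, the log2 values ran from 25.6 to 27.8 in CENPU clones and 26.6 to 27.5 in control clones for the neuroendocrine markers. For the stromal markers they ran from 5.35 to 5.94 in CENPU clones and 5.69 to 5.96 in control clones. For the leukocyte markers they ran from 17.5 to 18.5 in CENPU clones and 17.7 to 18.7 in control clones. Of these, CD68 was bright, with means of 10.2 in CENPU clones and 10.4 in control clones. CD14 (4.19 and 4.17) and LYZ (3.64 and 3.61) were dim. A sum of log2 values is not an amount of RNA.

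The rows of the cluster were dim. MIR200A averaged 3.93 over the 10 clones, above 18.4% of the named rows, and MIR429 averaged 3.55, above 12.7%. MIR200B was the brightest row, with a mean of 5.42, above 43.3% of named rows. Over all genes the median row mean was 5.82, and over microRNA genes 3.56, so MIR429 lay near the middle of the microRNA rows and MIR200A and MIR200B above it. These are ranks of signal, since each probe set has its own background and such ranks do not order the genes by expression. Background left in a dim row can make a difference on the log2 scale smaller than the change in RNA. Whether it did so in these rows was not tested.

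**Figure D1:**
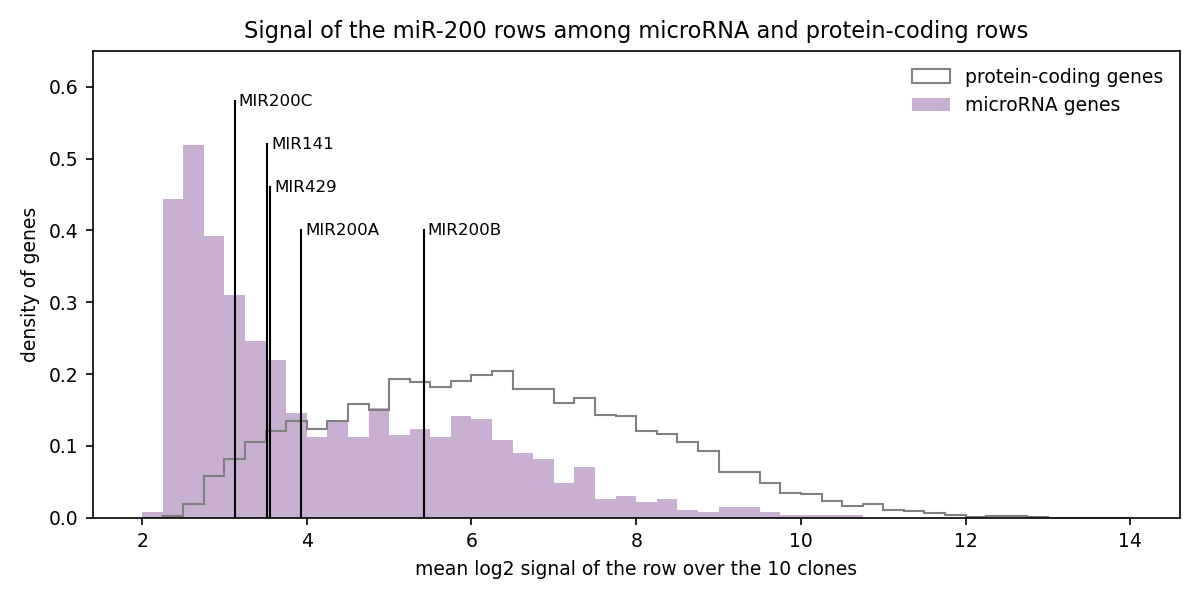
Distribution of the mean log2 signal over the 10 clones (x axis) for rows of microRNA genes (filled) and protein-coding genes (line), as density of genes (y axis), with black lines at the 5 miR-200 genes. MIR200A, MIR429, MIR141 and MIR200C lie between 3.12 and 3.93 and MIR200B at 5.42, against a median of 6.20 for protein-coding genes.

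None of the 3 members passed the test between CENPU and control clones (limma, adjusted p under 0.05 over all named rows). MIR429 alone had an unadjusted p under 0.05. In this comparison 10.1% of all genes were called, 5.31% higher and 4.79% lower, and 5.13% of microRNA genes, 1.96% higher and 3.17% lower. The groups did not overlap in 9.73% of all genes and lay lower in CENPU clones without overlap in 5.19%, and all 3 members overlapped. All 3 differences were below 0, as were those of 53.1% of all genes and 57.3% of microRNA genes. In a culture measured in bulk, fewer cells with a transcript and less of it per cell cannot be told apart.

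MIR429, whose mature product carries the seed of miR-200b, had the largest difference of the 3. Its values were 3.49, 3.45, 3.29, 3.42 and 3.29 in CENPU clones 1, 4, 5, 7 and 13, against 3.68, 3.54, 3.48, 3.92 and 3.95 in control clones 1 to 5. The groups overlapped through a pair of clones, as control 3 lay just below CENPU 1, and the other 4 control clones were above every CENPU clone. CENPU clones differed by -0.33 with a standard error of 0.11 and a 95% interval from -0.57 to -0.08 (limma, unadjusted p = 0.0125, adjusted p = 0.0835), or 1.25-fold. Permuting the 10 clones exactly gave a two-sided p of 0.0159, where 0.00794 was the smallest value the design allows.

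MIR200A carries the seed of the other class. Its values were 3.76, 3.90, 3.84, 3.92 and 3.799 in CENPU clones 1, 4, 5, 7 and 13, against 3.84, 4.02, 4.11, 4.21 and 3.90 in control clones 1 to 5. Controls 2, 3 and 4 stood above all CENPU clones, and controls 1 and 5 within their range. The difference was -0.17 with a standard error of 0.09 and a 95% interval from -0.37 to 0.03 (limma, unadjusted p = 0.0880, adjusted p = 0.250). Exact permutation gave a two-sided p of 0.0476 before any adjustment.

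MIR200B, the member nearest to the annotated start of the host gene, differed least. It read 5.27, 5.51, 5.47, 5.27 and 5.25 in CENPU clones 1, 4, 5, 7 and 13, against 5.15, 5.86, 5.45, 5.22 and 5.72 in control clones 1 to 5. The CENPU clones lay inside the range of the controls, of which clones 2 and 5 were high and clones 1 and 4 low. The difference was -0.13 with a standard error of 0.14 and a 95% interval from -0.44 to 0.18 (limma, adjusted p = 0.592), with an exact two-sided permutation p of 0.421. Without control 2 it was -0.03, and without control 2, CENPU 7 and CENPU 13 together it was 0.03, so its sign depended on those clones. In the same fit of 7 clones, MIR429 differed by -0.35 (limma adjusted p = 0.209) and MIR200A by -0.18 (limma adjusted p = 0.489).

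**Figure D2:**
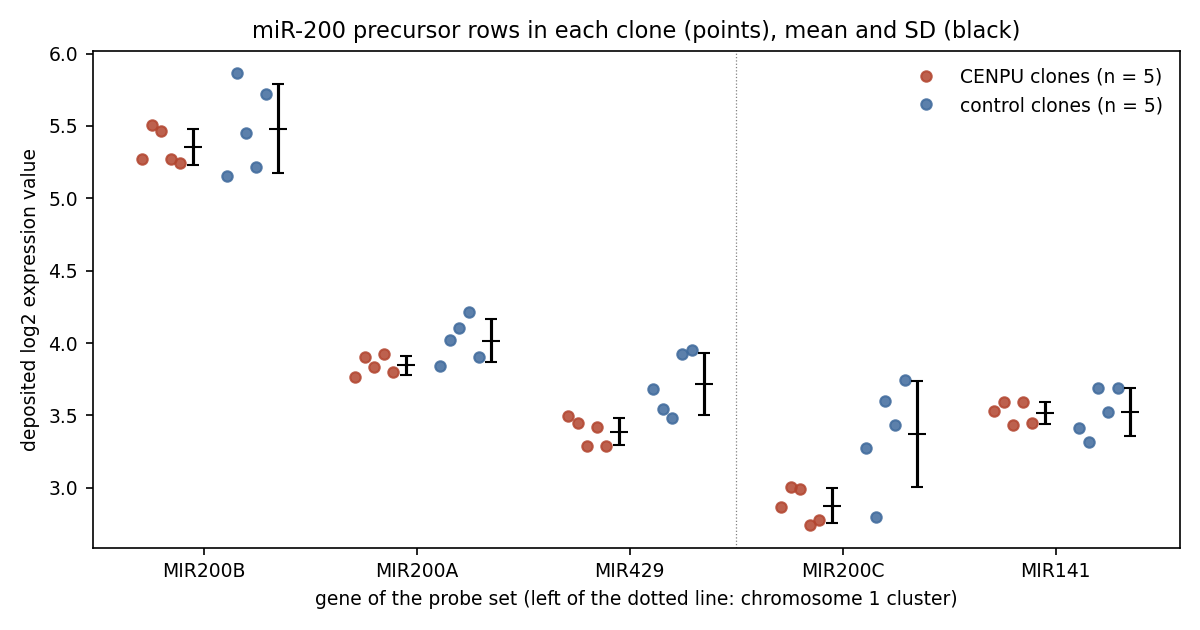
Deposited log2 values (y axis) of the 5 miR-200 rows (x axis) in each CENPU clone (red, left) and each control clone (blue, right), with the mean and SD of each group in black. MIR429 lies between 3.29 and 3.49 in CENPU clones and between 3.48 and 3.95 in control clones, and in every gene shown the CENPU points are closer together than the control points.

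Among the sister genes on chromosome 12, MIR200C had the largest difference of the family and MIR141 almost none. MIR200C read 2.87, 3.00, 2.99, 2.74 and 2.78 in CENPU clones 1, 4, 5, 7 and 13, against 3.27, 2.79, 3.60, 3.44 and 3.74 in control clones 1 to 5. Control 2 lay among the CENPU clones and the other 4 controls lay above them. MIR200C thus differed by -0.49, standard error 0.16 (limma adjusted p = 0.0701), and the row was the dimmest of the family, above 6.76% of named rows. MIR141 averaged 3.52 ± 0.08 in CENPU clones, against 3.53 ± 0.17 in control clones (SD, n = 5 each). Its difference was -0.01 (95% interval from -0.22 to 0.21, limma adjusted p = 0.975). By seed, the differences were -0.33, -0.49 and -0.13 for MIR429, MIR200C and MIR200B, and -0.17 and -0.01 for MIR200A and MIR141. By place, MIR141 lies beside MIR200C, and these had the smallest and the largest difference of the 5.

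The spread between clones was narrower in the CENPU group for each of the 5 rows. The SD was 0.07 in CENPU clones and 0.15 in control clones for MIR200A, 0.12 and 0.31 for MIR200B, and 0.09 and 0.21 for MIR429. For MIR200C it was 0.12 in CENPU clones and 0.37 in control clones. Over all genes the opposite was more common, as the SD was lower in CENPU clones in 32.1% of 14884 genes and in 42.0% of 1072 microRNA genes. The median SD over all genes was 0.22 in CENPU clones and 0.17 in control clones. Whether the spread of these rows differed between the groups was not tested.

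No correlation between the 3 rows across clones passed its test. Over the 10 clones, Pearson's r was 0.476 between MIR200A and MIR429 (permutation p = 0.156, adjusted p = 0.350 over 9 pairs), with Spearman's rho 0.418 (permutation p = 0.233, adjusted p = 0.419). It was 0.152 between MIR200A and MIR200B (permutation p = 0.685, adjusted p = 0.856; rho 0.115, permutation p = 0.759, adjusted p = 0.854). Between MIR200B and MIR429 it was 0.117 (permutation p = 0.761, adjusted p = 0.856; rho 0.00606, permutation p = 1.0, adjusted p = 1.0). These values rested on few clones. Without control 3 and control 4, r between MIR200A and MIR200B was 0.742 and between MIR200A and MIR429 0.269, and without control 2 and control 5, r between MIR200B and MIR429 was -0.500. With the group means taken out, r was 0.00591 between MIR200A and MIR429, -0.0465 between MIR200A and MIR200B, and -0.155 between MIR200B and MIR429 (permutation p of 0.986, 0.898 and 0.665, adjusted p of 0.986, 0.979 and 0.903 over 12 pairs). Differences between members within a clone also showed no shift past their spread. MIR200B minus MIR429 averaged 1.96 ± 0.16 in CENPU clones, against 1.77 ± 0.40 in control clones (SD, n = 5 each), with an exact two-sided permutation p of 0.333.

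The repressors of the cluster were measured by 1 row each. ZEB1 read 5.13, 5.12, 5.23, 5.90 and 5.37 in CENPU clones 1, 4, 5, 7 and 13, against 4.86, 5.45, 5.30, 5.41 and 5.55 in control clones 1 to 5. The groups overlapped, with CENPU 7 highest and control 1 lowest, and the difference was 0.04 (95% interval from -0.34 to 0.41, limma adjusted p = 0.910). ZEB2 read 4.46, 4.58, 4.54, 4.43 and 4.25 in CENPU clones 1, 4, 5, 7 and 13, against 4.63, 4.77, 4.54, 4.66 and 4.66 in control clones 1 to 5. CENPU 4 and CENPU 5 lay just above the lowest control, clone 3, and the other 3 CENPU clones lay below. The difference of -0.20 did not pass (95% interval from -0.39 to -0.0027, limma adjusted p = 0.176). MIR429 and ZEB2 had the highest correlation of the 9 pairs, positive, with r of 0.626 (permutation p = 0.0531, adjusted p = 0.350) and rho of 0.733 (permutation p = 0.0203, adjusted p = 0.183). It was 0.643 without control 4 and control 5 and 0.202 with the group means taken out (permutation p = 0.574, adjusted p = 0.903). With group means taken out, the highest of the 12 pairs was MIR200B and ZEB2, also positive, with r of 0.537 (permutation p = 0.107, adjusted p = 0.903) and rho of 0.648 (permutation p = 0.0482, adjusted p = 0.578), and r of 0.419 without control 2 and control 5. The relation to CENPU over all clones was not computed because its values form a separate cluster for each group. With group means taken out, r with CENPU was 0.333 for MIR429, -0.355 for MIR200B and -0.230 for MIR200A (permutation p of 0.350, 0.316 and 0.522, adjusted p of 0.903 for each, over 12 pairs).

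Among 30 described target genes of the family, 18 were measured, of which 2 rose, 0 fell and 16 did not pass. The share called, 11.1%, was close to the 10.1% of all genes. Their median difference was 0.24, against -0.02 over all genes. FN1, which encodes the matrix protein fibronectin, rose by 2.21, and CFL2, which encodes the actin-severing protein cofilin-2, rose by 0.97 (limma adjusted p of 0.0124 and 0.0222). CFL2 read 7.87, 7.66, 7.89, 8.50 and 8.61 in CENPU clones 1, 4, 5, 7 and 13, against 7.61, 6.55, 7.09, 7.08 and 7.33 in control clones 1 to 5, so the groups did not overlap. Without CENPU 7, CENPU 13 and control 2, which held both ends of these values, CFL2 differed by 0.53 and no longer passed (limma adjusted p = 0.0883), FN1 differed by 1.28, and the median of the list was 0.02. The counts were 1 without CENPU 7, control 2, control 3 or control 4, and 4 without CENPU 1 or CENPU 4. Calls over all genes were 688, 687, 820 and 613 in the former fits and 2471 and 1973 in the latter, against 1504 with all clones.

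Targets that did not pass included the Notch coactivators MAML2 and MAML3, with differences of 0.93 and 0.46, and the membrane-cytoskeleton linker MSN, with 0.34. MAML2 had a second row, much dimmer, with a difference of 0.07. SEC23A, a coat protein of vesicles leaving the endoplasmic reticulum, differed by 0.65, and the formin FHOD1 by -0.32. The Polycomb subunit SUZ12 differed by 0.75 and the Notch ligand JAG1 by -0.21.

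Of 37 epithelial genes 29 were measured, and 3 rose, 0 fell and 26 did not pass, with a median difference of -0.03. At 10.3%, the share called was close to the 10.1% of all genes. TJP1, the tight junction scaffold ZO-1, rose by 0.98, PATJ, a scaffold of the apical Crumbs complex, by 0.79, and MARVELD2, the tricellular junction protein tricellulin, by 0.44 (limma adjusted p from 0.0159 to 0.0209). In the fit without control 2, CENPU 7 and CENPU 13, TJP1 still passed at 0.57, while PATJ (0.61) and MARVELD2 (0.35) did not. Without control 4 the count was 1, and without CENPU 1 it was 5. Calls over all genes were 613 and 2471 in these fits, against 1504 with all clones.

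EPCAM, the epithelial adhesion molecule, split the CENPU clones. It read 6.21, 7.50, 7.62, 5.97 and 6.96 in CENPU clones 1, 4, 5, 7 and 13, against 5.74, 6.12, 6.09, 5.99 and 6.04 in control clones 1 to 5. CENPU 4, 5 and 13 stood well above all controls, CENPU 1 just above them, and CENPU 7 within their range. The difference of 0.85 did not pass (95% interval from 0.22 to 1.49, limma adjusted p = 0.0839). ESRP1, a splicing regulator of epithelial cells, had a dim row and differed by -0.09, and its paralogue ESRP2 by 0.08. The desmosome gene DSP differed by 0.91, the polarity gene LLGL2 by -0.49 and the tight junction gene OCLN by 0.59, and all 3 did not pass. CDH1, the E-cadherin gene, was not measured by a named row.

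Only 9 of 25 mesenchymal genes were measured, of which VIM and FN1 rose, 0 fell and 7 did not pass. These 2 are 22.2% of the 9, where 10.1% of all genes were called and 5.31% rose. In the fit without control 2, CENPU 7 and CENPU 13, VIM (0.74) and FN1 (1.28) still passed, and 1 other gene of the list fell. Calls over all genes were 470 in that fit, against 1504 with all clones. VIM encodes the intermediate filament protein vimentin. It read 8.48, 8.75, 8.51, 8.26 and 8.60 in CENPU clones 1, 4, 5, 7 and 13, against 7.87, 7.58, 7.63, 7.92 and 7.93 in control clones 1 to 5, with no overlap. The rise was 0.74 with a standard error of 0.11 (limma adjusted p = 0.00446), and it passed in each of the 10 fits without 1 clone. Its other rows differed by 1.17, which passed, and 0.70, which did not. The receptor kinase AXL differed by 0.42, the calcium-binding protein S100A4 by 0.42, the matrix protein TNC by -0.44 and the collagen cross-linking enzyme LOX by 0.27, none of them past the test. Among 10 measured transcription factors of the epithelial to mesenchymal transition, TCF4 rose by 0.63, 0 fell and 9 did not pass, a share of 10% called against 10.1% of all genes. SNAI1, SNAI2 and TCF3 differed by -0.20, -0.17 and -0.21. TCF4 lost its call without CENPU 5, CENPU 13, control 2, control 3, control 4 or control 5, leaving a count of 0 in each of those fits. Calls over all genes were 613 to 864 in those fits, against 1504 with all clones.

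**Figure D3:**
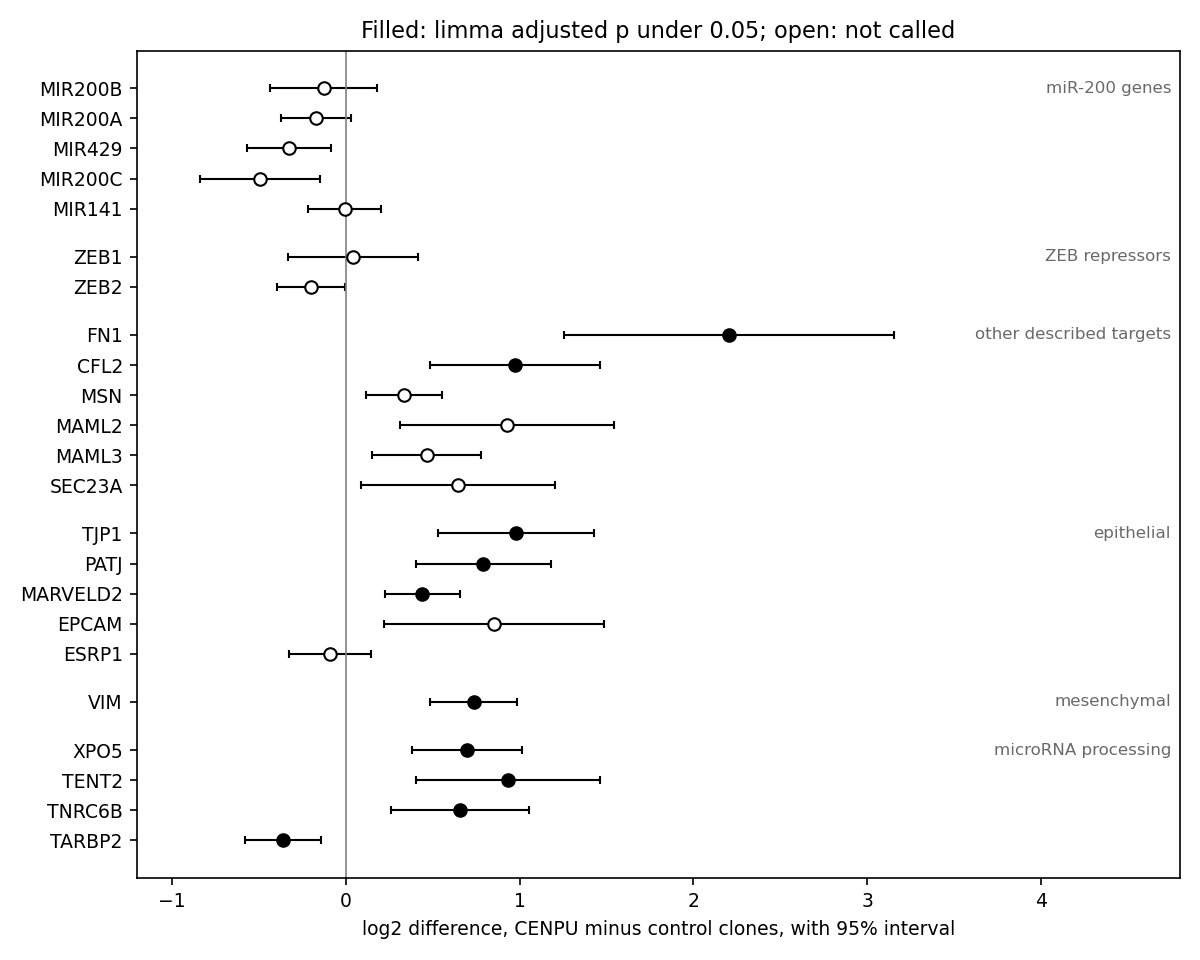
Log2 difference, CENPU minus control clones, with its 95% interval (x axis) for the miR-200 genes, their ZEB repressors, and named genes of the target, epithelial, mesenchymal and microRNA processing lists (y axis). Filled points passed limma at an adjusted p under 0.05, and all 5 miR-200 points and both ZEB points are open.

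Of 25 genes of microRNA processing and action, 13 were measured, and 3 rose, 1 fell and 9 did not pass, with a median difference of 0.29. The share called was 30.8%, where 10.1% of all genes were called, 5.31% higher and 4.79% lower. XPO5, the exportin that carries precursor hairpins out of the nucleus, read 8.76, 8.998, 9.10, 8.96 and 9.11 in CENPU clones 1, 4, 5, 7 and 13, against 8.63, 7.83, 8.21, 8.24 and 8.53 in control clones 1 to 5. All CENPU clones lay above all controls, and the rise was 0.70 (limma adjusted p = 0.0155). TENT2, a terminal nucleotidyltransferase, rose by 0.93 and TNRC6B, a GW182 protein that acts with Argonaute, by 0.66, while TARBP2, a partner of Dicer, fell by 0.36 (limma adjusted p from 0.0334 to 0.0425). The helicase DDX17 differed by 0.64 and the nuclease SND1 by 0.29 without passing, and DGCR8, the partner of Drosha, by 0.04. DICER1, DROSHA and the Argonaute genes were not measured by named rows. In the fit without control 2, CENPU 7 and CENPU 13, none of the 13 passed in limma, XPO5 with a difference of 0.55 (adjusted p = 0.0702), and the median was 0.10. The count was 1, XPO5, in each fit without CENPU 5, CENPU 7, CENPU 13, control 2, control 3, control 4 or control 5. Calls over all genes were 613 to 864 in these fits and 470 without control 2, CENPU 7 and CENPU 13 together, against 1504 with all clones.

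Of 23 described regulators of miR-200 transcription, 16 were measured and 1 passed, or 6.25% against 10.1% of all genes. KDM5B, a histone H3 lysine demethylase, rose by 1.31 with a standard error of 0.23 (limma adjusted p = 0.00665), and by 0.91 without control 2, CENPU 7 and CENPU 13. It read 7.99, 8.14, 8.56, 8.75 and 9.04 in CENPU clones 1, 4, 5, 7 and 13, against 7.48, 6.65, 7.51, 6.92 and 7.35 in control clones 1 to 5, with no overlap. The signal transducers SMAD2 and SMAD4 differed by 0.93 and 0.68 and the transcription factor SP1 by 0.37, short of the threshold. The DNA methyltransferases DNMT1, DNMT3A and DNMT3B differed by -0.12, 0.14 and -0.15.

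Most genes measured around the cluster on chromosome 1 did not pass the test, and those that did were lower in CENPU clones. Of 34 listed neighbours 18 were measured, and 4 fell, 0 rose and 14 did not pass, where 4.79% of all genes fell. Their median difference was -0.29 and 17 of 18 differences were below 0, as were 53.1% over all genes. The list count was 1 to 6 in fits without 1 clone. It was 2 without CENPU 5, CENPU 13, control 3, control 4 or control 5, and 1 without CENPU 7 or control 2. Without control 2, CENPU 7 and CENPU 13 together the count was 0 and the median -0.18. Calls over all genes were 613 to 864 in the fits with a count of 1 or 2. They were 470 without the 3 clones together, against 1504 with all clones. SDF4, which encodes a calcium-binding protein of the Golgi and has the nearest named row on the side of MIR429, fell by 0.53 (limma adjusted p = 0.0176). It read 9.66, 9.59, 9.20, 9.38 and 9.44 in CENPU clones 1, 4, 5, 7 and 13, against 9.74, 10.09, 10.19, 9.97 and 9.96 in control clones 1 to 5, with no overlap. KLHL17 fell by 0.43, C1orf159 by 0.39 and CCNL2, a cyclin of splicing speckles, by 0.48. The non-coding gene LINC01342, the nearest named row on the side of MIR200B, differed by 0.01. The differences of the members (-0.13, -0.17 and -0.33) lay between those of LINC01342 and SDF4. Most of the 20 neighbours did too, so this gives no order by place. Among the 10 nearest genes on each side, 5 fell, 0 rose and 15 did not pass. The fifth was MRPL20-AS1 (-0.48), which like LINC01342 lies outside the rule for named genes and was named after its value was seen.

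**Figure D4:**
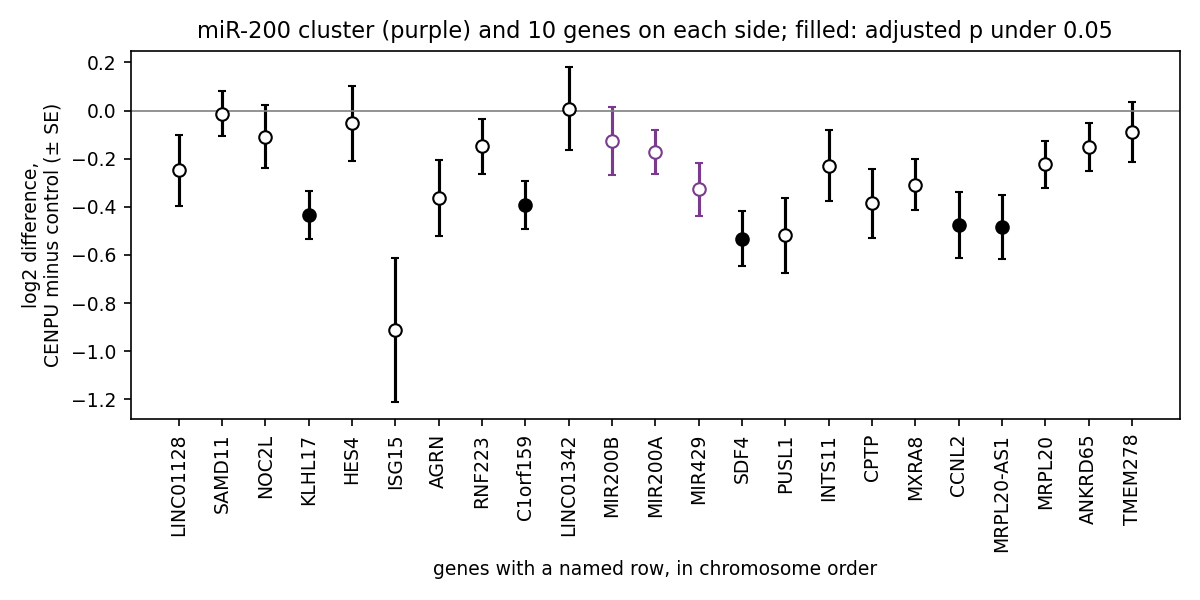
Log2 difference, CENPU minus control clones, with standard error (y axis) for the 3 miR-200 genes (purple) and the 10 genes with a named row on each side, in chromosome order (x axis). Filled points passed limma at an adjusted p under 0.05, and 19 of the 20 neighbours lie below 0.

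The genes whose values followed each member most closely differed between the members. The measure was Pearson's r over the 10 clones among all other genes, given as a description, since the points share arrays and group differences. With MIR200A, MIR200B and MIR429, r was above 0.9 in 4, 2 and 6 genes. The highest of so many r over 10 clones can be high by chance, which was not tested. MIR200A was followed by LRRC3-DT (0.919), UBA7, the activating enzyme for ISG15 (0.914), HELZ2 (0.908), MEIS1-AS3 (0.904) and IFITM3, an interferon-induced membrane protein (0.899). MIR200B was followed by CD226 (0.911), TMEM51-AS1 (0.903), KRTAP2-2 (0.886), LRRC70 (0.884) and ASB15 (0.878), of which the brightest averaged 4.49. MIR429 was followed by CDC45, a subunit of the replicative helicase (0.939), LOC284950 (0.919), OTUD6A (0.911), RAD54L, a motor protein of recombination repair (0.906), and DHX58, a sensor of viral RNA (0.905). Of these 15 genes, UBA7, IFITM3, CDC45, OTUD6A and RAD54L fell in CENPU clones, by 0.70, 0.47, 0.68, 0.41 and 0.73, where 4.79% of all genes fell. The 15 were picked for following rows whose own differences were below 0, so these falls are not a separate result.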

How the data were processed

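Total RNA of 10 PC-3 clones was measured on 1-channel Affymetrix arrays, per the labels' protocols. The authors deposited 1 log2 value per probe set and clone, made with RMA and Partek per the submitters' processing notes, which give no versions. That these values are log2 was read from their range, 1.65 to 15.0. The build and the steps after RMA are not given in the sources used here. Of 53617 rows, 16098 were named through the platform table and RefSeq gene IDs, for 14884 genes; the row of highest mean stood for a gene. Each named row was fitted with limma (version 3.58.1, R 4.3.3; lmFit and eBayes, no covariates), with Benjamini-Hochberg adjustment over all 16098. Single values had exact two-sided permutation tests, and correlations 100000 permutations. Since each clone is a separate isolate, p-values reflect how clones vary. The fit was tested on simulated data with independent noise in each row and clone. Such data hold no trend with gene span, so they check the calculation and not the calls made here.

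The members and gene lists (133 of 221 entries measured) were chosen with earlier results of these data known. Named were the members, MIR200C, MIR141, CENPU, ZEB1, ZEB2, CDH1, EPCAM, ESRP1, VIM, DICER1, DROSHA, up to 6 genes per list by smallest p, and the 5 genes most correlated with each member. Other list members were named after their values were seen. Alternatives were other scalings, filters, variance models, thresholds, a clone-number block and leaving out clones. Depth is not defined for arrays, and precision rests on the number of clones.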

Additional observations from a re-analysis of the deposited data

Results flagged for a closer look

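In 7 of 156 groups of 5 clones examined over the 78 named genes, 1 clone stood far from the other 4 by Dixon's criterion, a share of 4.49% where chance gives about 1 in 20. None of the 5 miR-200 genes was among them. Control 2 was low in TJP1 (6.80, next clone 7.48), SUZ12 (6.70, next 7.48) and SMAD4 (6.73, next 8.29), and high in KLK4 (4.97, next 4.72). Control 3 was high in SNAI1 (6.39, next 6.005) and low in KLK3 (5.38, next 5.63). CENPU 13 was high in HOXB13 (11.6, next 11.3).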

How the results depend on the processing

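None of the 3 members passed in any limma fit at an adjusted p under 0.05, and MIR429 (-0.33) did so at 0.10. The exact permutation test, unadjusted, passed for MIR429 (-0.33) and MIR200A (-0.17). Without 1 clone, differences ran from -0.39 to -0.27 for MIR429, -0.22 to -0.12 for MIR200A and -0.21 to -0.03 for MIR200B. MIR200B turned to 0.052 with the replicate block by clone number (limma adjusted p = 0.934) and to 0.030 without control 2, CENPU 7 and CENPU 13. The block takes its difference from clones 1, 4 and 5 of each group alone, since the other numbers occur in only 1 group. MIR200A and MIR429 were not tested under the filter on dim rows. Clone numbers 1, 4 and 5 occur in both groups, but deviations of same-numbered clones correlated at -0.375, 0.104 and 0.0249, so the numbers do not pair the clones, and only CENPU 5 correlated best with the control of its own number.

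Counts of calls in the fits without 1 clone were 613 to 2471 for all genes (1504 with all clones), 27 to 77 for microRNA genes (55), 1 to 4 for targets (2), 0 to 1 for transition factors (1), 1 to 5 for epithelial genes (3), 2 in each fit for mesenchymal genes (2), 1 to 5 for processing genes (4), 1 in each fit for regulators (1) and 1 to 6 for neighbours (4). Other counts that moved by over 1.5 times follow, and the causes were not tested. Under the replicate block they were 55 for all genes, 4 for microRNA genes, 1 for targets, 1 for mesenchymal genes, and 0 for transition factors, epithelial, processing, regulator and neighbour genes. That fit had few degrees of freedom left and took its differences from clones 1, 4 and 5 of each group alone. Without control 2, CENPU 7 and CENPU 13 they were 470 for all genes, 30 for microRNA genes, 1 for targets, 1 for epithelial genes, and 0 for transition factors, processing genes and neighbours. With ordinary variances they were 733 for all genes, 23 for microRNA genes, 0 for targets and transition factors, and 1 each for epithelial, mesenchymal and processing genes. At an adjusted p under 0.01 they were 253 for all genes, 12 for microRNA genes, 1 for mesenchymal genes, and 0 for targets, transition factors, epithelial, processing and neighbour genes. At 0.10 they were 2588 for all genes, 95 for microRNA genes, 5 for targets, 6 for epithelial genes, 2 for regulators and 8 for neighbours. Processing genes numbered 2 after median centring and 2 over all rows of the table. Regulators numbered 2 with the filter on dim rows and 2 with array weights, where targets numbered 4 and epithelial genes 5. Each miR-200 gene had 1 row, so averaging rows could not change it. No scanner files were used here, so signal over background was not assessed for single probes.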
